A study of Mus musculus with 9 samples.

Results

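The genes described here are the MHC class I presentation machinery of mouse liver tumors, 10 of the 52163 gene symbols measured. They are the heavy chain genes H2-K1 and H2-D1, the light chain gene B2m, the peptide transporter genes Tap1 and Tap2, the tapasin gene Tapbp, the immunoproteasome genes Psmb8, Psmb9 and Psmb10, and the regulator gene Nlrc5. They were set by name, at a time when earlier results of these data were known. Tumors of 9 male C57BL/6 mice were sequenced as bulk RNA, 3 from PBS-treated mice, 3 that were nonresponsive to anti-PD-1 antibody and 3 that were responsive to it. All 9 mice carried orthotopic tumors and were bought at an age of 6 to 8 weeks. Tumors of the mouse hepatoma line Hepa1-6 were first grown under the skin, and pieces of them were implanted into the liver. PBS or antibody (5 mg per kg) was injected into the peritoneum every 4 days for 5 times, from day 10 to day 26 after inoculation, and the tumors were taken on day 27, trimmed of surrounding tissue. Nonresponsive tumors were the largest antibody-treated ones and responsive tumors the smallest, with intermediate ones left out, so that response and tumor size cannot be told apart. Each tumor is 1 mouse, and all of them grew from pieces of tumors of a single cell line.

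MHC class I molecules show fragments of the proteins made inside a cell to CD8+ T cells. The heavy chain pairs with beta-2 microglobulin, the proteasome cuts the peptides, the TAP transporter moves them into the endoplasmic reticulum, and tapasin helps load them. Interferon-gamma is the classical inducer of these genes, through IRF1 and NLRC5 among others, and it also exchanges the catalytic proteasome subunits for those of the immunoproteasome. CD8+ T cells, which PD-1 restrains, depend on this display to recognise tumor cells.

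Stretches of the promoters are shown because these genes are known for shared inducible elements that lie close to their start sites. RefSeq promoters (build GRCm38.p6, 250 bases before to 50 after each start) were matched for 8 of the 10 members, all but Tap2 and Nlrc5. They were searched on both strands for 2 short patterns, a kappaB core (GGGATTCC) and an interferon response core (GAAANNGAA), and no match overlapped another. The kappaB core lay in H2-K1 and H2-D1 and in 1.06% of all 32851 promoters, and the interferon response core lay in B2m and in 8.56%. Neither pattern lay in these windows of Tap1, Tapbp, Psmb8, Psmb9 and Psmb10. Only these exact patterns were searched for. Other forms of either element were not, so a promoter without a match may still hold such an element. The matches are in capitals in the 100 bases around them, at chr17:34000405-34000504 (minus strand) for H2-K1, chr17:35262877-35262976 (plus) for H2-D1 and chr2:122147502-122147601 (plus) for B2m.
H2-K1: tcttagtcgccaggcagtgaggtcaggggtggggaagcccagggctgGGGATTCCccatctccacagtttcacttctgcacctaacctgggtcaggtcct
H2-D1: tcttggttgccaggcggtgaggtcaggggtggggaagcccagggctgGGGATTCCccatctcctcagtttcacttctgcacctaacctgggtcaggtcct
B2m: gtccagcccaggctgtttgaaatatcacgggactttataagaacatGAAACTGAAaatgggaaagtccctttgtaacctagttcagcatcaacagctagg

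The same kappaB core thus stood in both heavy chain promoters, 110 bases before the first listed start of H2-K1 and 170 bases before that of H2-D1, while the match in B2m lay 139 bases before the start. Tap1 and Psmb9 are transcribed away from each other, and their promoter windows shared 275 bases, chr17:34187306-34187580, shown on the Tap1 strand because a single stretch serves both genes.
Tap1 and Psmb9: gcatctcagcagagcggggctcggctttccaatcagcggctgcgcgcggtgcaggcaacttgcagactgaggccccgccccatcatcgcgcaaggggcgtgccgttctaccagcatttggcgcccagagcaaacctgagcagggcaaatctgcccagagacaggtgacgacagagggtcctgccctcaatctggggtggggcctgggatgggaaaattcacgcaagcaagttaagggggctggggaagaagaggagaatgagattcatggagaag

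The values are FPKM, the fragments mapped to a gene scaled by its length and by all mapped fragments, as Cufflinks estimated them from transcripts assembled in each tumor. An assembled entry can hold neighbouring genes in some tumors and not in others, so a member's value was the sum of the entries that name it, with the company it kept. Only Tap2, Psmb9 and Nlrc5 had an entry to themselves in all 9 tumors. B2m shared its entry with Trim69 in 5 tumors, where Trim69 alone reached at most 0.613 FPKM in the others, and Psmb10 shared with Ctrl in nonresponsive tumor 1 and responsive tumors 1 and 2, where Ctrl alone gave at most 1.59 FPKM in the others apart from 57.0 in nonresponsive tumor 2. H2-D1 shared with at least 5 other heavy chain genes of the H2-Q group in every tumor, H2-Q10 among them, and Tapbp always shared with Zbtb22, and with Rgl2 as well in 6 tumors. All 10 members passed the filter on low values, which asked for 1 FPKM in at least 3 of the 6 tumors compared.

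Whole-tumor RNA mixes cancer cells with other cells, and fewer cells of a type and less RNA per cell cannot be told apart. The fragment counts are not in the files. A relative sequencing depth was inferred from the commonest ratio of low FPKM values of the same entries in 2 tumors. It lay between 0.936 and 1.07 times that of PBS tumor 1. Only ratios near 1 were searched, so a large difference in depth could not have shown. Entries that name no gene took 19.2 to 81.5% of the summed FPKM of a tumor. The summed FPKM of the entries that name a gene varied less, from 651110 in nonresponsive tumor 2 to 814452 in responsive tumor 3. Afp, a marker of this hepatoma line, ranged from 0.32 FPKM in nonresponsive tumor 1 and 0.65 in responsive tumor 1 to 56.5 in nonresponsive tumor 3. The summed FPKM of 17 hepatocyte markers ranged over 441 to 5602 in PBS tumors, 3685 to 13116 in nonresponsive tumors and 11160 to 21259 in responsive tumors.

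B2m had the highest median of the 10 members over the 9 tumors, 4520 FPKM, followed by H2-D1 with 2016, H2-K1 with 1350, Psmb8 with 289 and Tapbp with 224. Psmb9 (129), Tap1 (127) and Psmb10 (111) lay close together, with ranges over the tumors that overlapped, and Tap2 (58.6) and Nlrc5 (20.1) were lowest. The chains of the class I molecule were thus more abundant, per transcript length, than the genes that make and load its peptides.

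H2-K1 encodes a classical heavy chain (chr17:34214991-34219321 in the files' coordinates). It measured 813, 1824 and 1248 FPKM in PBS tumors 1 to 3, 1816, 1255 and 1340 in the nonresponsive tumors, and 1350, 5954 and 1690 in the responsive tumors. Responsive tumor 2 stood above the other 8, and only there did the entry also hold Rps18, a ribosomal protein gene with 1397 to 4781 FPKM of its own elsewhere. Its entry held H2-K2 as well in 4 tumors, where H2-K2 alone reached at most 13.5 FPKM in the rest. With H2-K1, H2-K2 and Rps18 added up in every tumor, the PBS tumors had 5594, 4224 and 4739 FPKM, the nonresponsive tumors 3213, 3125 and 4176, and the responsive tumors 3013, 5954 and 3723.

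H2-D1 encodes the other classical heavy chain of this strain. Its entry measured 1112, 2120 and 1773 FPKM in PBS, 2803, 1431 and 1764 in nonresponsive tumors and 2016, 2195 and 2369 in responsive tumors. The responsive tumors lay close together (2193 ± 176, SD, n = 3) and inside the range of the nonresponsive tumors (1999 ± 716, SD, n = 3). Since the H2-Q genes are close relatives and sit in the same entry, the share of H2-D1 in it is uncertain. Among them H2-Q10 is a class I gene of hepatocytes, whose summed markers differed between the tumors. The part of H2-Q10 in this entry was not tested. The interval that Cufflinks gave for it ran from 0 to 28180 FPKM in PBS tumor 2 and from 0 to 153014 in nonresponsive tumor 1.

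B2m encodes beta-2 microglobulin, the chain that every class I molecule shares (chr2:121978167-121983564). It measured 3994, 3510 and 5827 FPKM in PBS, 3904, 5806 and 5308 in nonresponsive tumors and 4520, 3152 and 4959 in responsive tumors. The groups overlapped, and the lowest value was that of responsive tumor 2, the tumor in which 7 of the other members were highest.

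**Figure D1:**
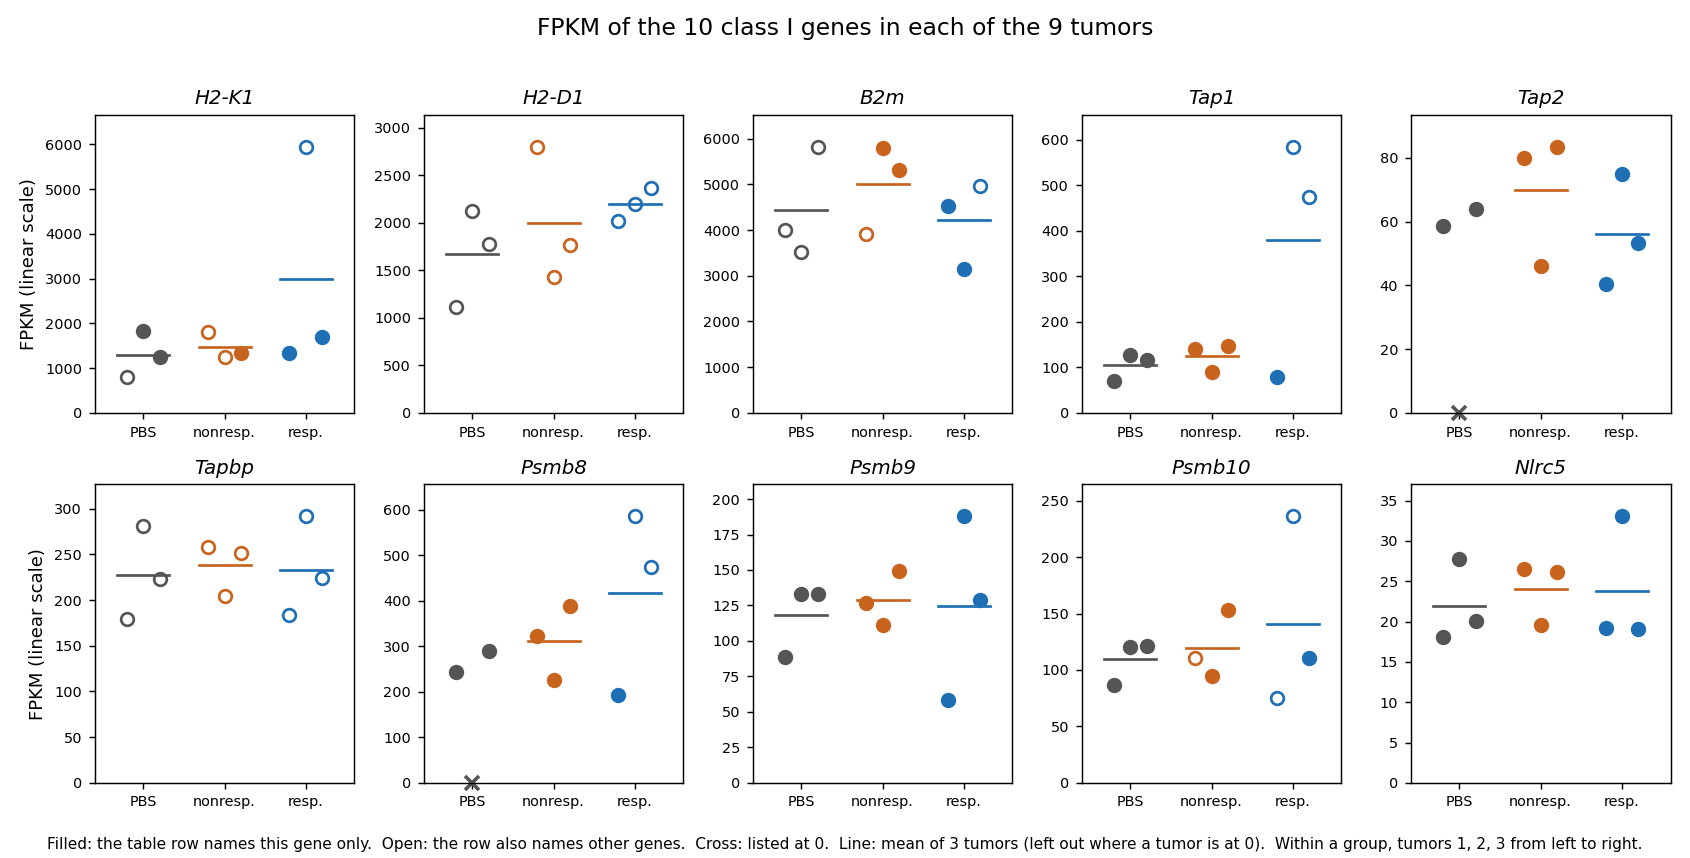
FPKM on a linear scale for each of the 10 genes, with 1 point per tumor (3 PBS, 3 nonresponsive, 3 responsive), filled where the entry names that gene only and open where it names others too, a cross for a value listed at 0 and a line for the mean of 3 tumors. Responsive tumor 2 is highest for 7 of the 10 genes and lowest for B2m, and the groups overlap in every panel.

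Tap1 encodes a subunit of the peptide transporter. It measured 71.0, 127 and 117 FPKM in PBS, 140, 90.6 and 146 in nonresponsive tumors and 79.4, 585 and 474 in responsive tumors. The 2 high responsive values are those in which Tap1 and Psmb8 shared an entry. With both genes added up in every tumor, the PBS tumors had 315, 127 and 406 FPKM, the nonresponsive tumors 462, 317 and 534, and the responsive tumors 272, 585 and 474, so that the groups lay in the same range.

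Tap2 encodes the partner subunit (chr17:34422501-34435295). It measured 58.6, 0 and 64.0 FPKM in PBS, 79.8, 46.2 and 83.6 in nonresponsive tumors and 40.5, 74.8 and 53.2 in responsive tumors. The 8 values above 0 differed by at most 2.07-fold. PBS tumor 2 was listed at 0 for Tap2 and also for Psmb8, its neighbour on the chromosome, while Tap1 and Psmb9 beside them had values there.

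Tapbp encodes tapasin, which bridges the transporter and the empty class I molecule. It was among the steadiest members, with 179, 280 and 224 FPKM in PBS, 258, 204 and 252 in nonresponsive tumors and 184, 291 and 224 in responsive tumors. The group means were 228 ± 51.0, 238 ± 29.6 and 233 ± 54.3 FPKM (SD, n = 3 each), closer to each other than the tumors of any group.

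Psmb8, Psmb9 and Psmb10 encode the catalytic subunits of the immunoproteasome. Psmb9 (chr17:34400961-34406738), read alone in every tumor, measured 88.5, 133 and 133 FPKM in PBS, 126, 111 and 149 in nonresponsive tumors and 58.3, 188 and 129 in responsive tumors. Its lowest and its highest value were both in responsive tumors, 3.22-fold apart. Psmb10 (chr8:106662367-106665076) measured 86.7, 121 and 121 FPKM in PBS, 111, 94.3 and 153 in nonresponsive tumors and 75.1, 236 and 111 in responsive tumors. Here too the responsive group held both extremes, 3.15-fold apart. Psmb8 measured 244, 0 and 289 FPKM in PBS, 322, 226 and 388 in nonresponsive tumors and 193, 585 and 474 in responsive tumors, the last 2 with Tap1 in the entry.

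Nlrc5 encodes a transactivator that binds class I promoters (chr8:95160984-95253900). It was read alone in all 9 tumors, with 18.0, 27.7 and 20.1 FPKM in PBS, 26.5, 19.5 and 26.1 in nonresponsive tumors and 19.2, 33.0 and 19.1 in responsive tumors. The mean was 21.9 ± 5.10 FPKM in PBS tumors and 23.8 ± 8.02 in responsive tumors (SD, n = 3 each), and the mean of the nonresponsive tumors lay within 1 SD of both.

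The comparison of responsive with nonresponsive tumors asks whether class I genes went with the response to the antibody. None of the 10 members passed an adjusted p-value of 0.05 (limma on log2(FPKM + 1), Benjamini-Hochberg adjustment over 15177 symbols), where 0.0988% of all symbols did. None passed an unadjusted p-value of 0.05 either, against 5.44% of all symbols, and in none did the 3 responsive tumors lie apart from the 3 nonresponsive tumors, against 10.7%. Of the 10 members 5 were higher in the responsive tumors, and their median difference was 0.027 on the log2 scale, beside -0.060 over all symbols tested. The 6 members that shared no entry with another member or with Rps18 and were never listed at 0 differed by 0.19 (H2-D1), 0.10 (Psmb10, and -0.12 with Ctrl added in every tumor), -0.047 (Tapbp), -0.048 (Nlrc5), -0.19 (Psmb9) and -0.26 (B2m) on the log2 scale. The 95% interval ran from -1.29 to 0.91 for Psmb9, from -0.74 to 0.65 for Nlrc5 and from -1.06 to 0.55 for B2m, so that the data leave room for changes in either direction within these bounds.

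Tap1 had the largest difference of the 10, 1.19 on the log2 scale (SE 0.79, limma adjusted p = 0.971), followed by H2-K1 with 0.72 (SE 0.60, limma adjusted p = 0.971). Both rest on the responsive tumors in which the entry took in a neighbour. With the genes of a shared entry joined in every tumor, the difference was -0.017 for Tap1 and Psmb8 together and 0.22 for H2-K1, H2-K2 and Rps18 together. Without responsive tumor 1, in which Tap1 was read alone, Tap1 differed by 2.09 and passed the unadjusted threshold (limma adjusted p = 0.657). Without responsive tumor 2, H2-K1 differed by 0.058.

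**Figure D2:**
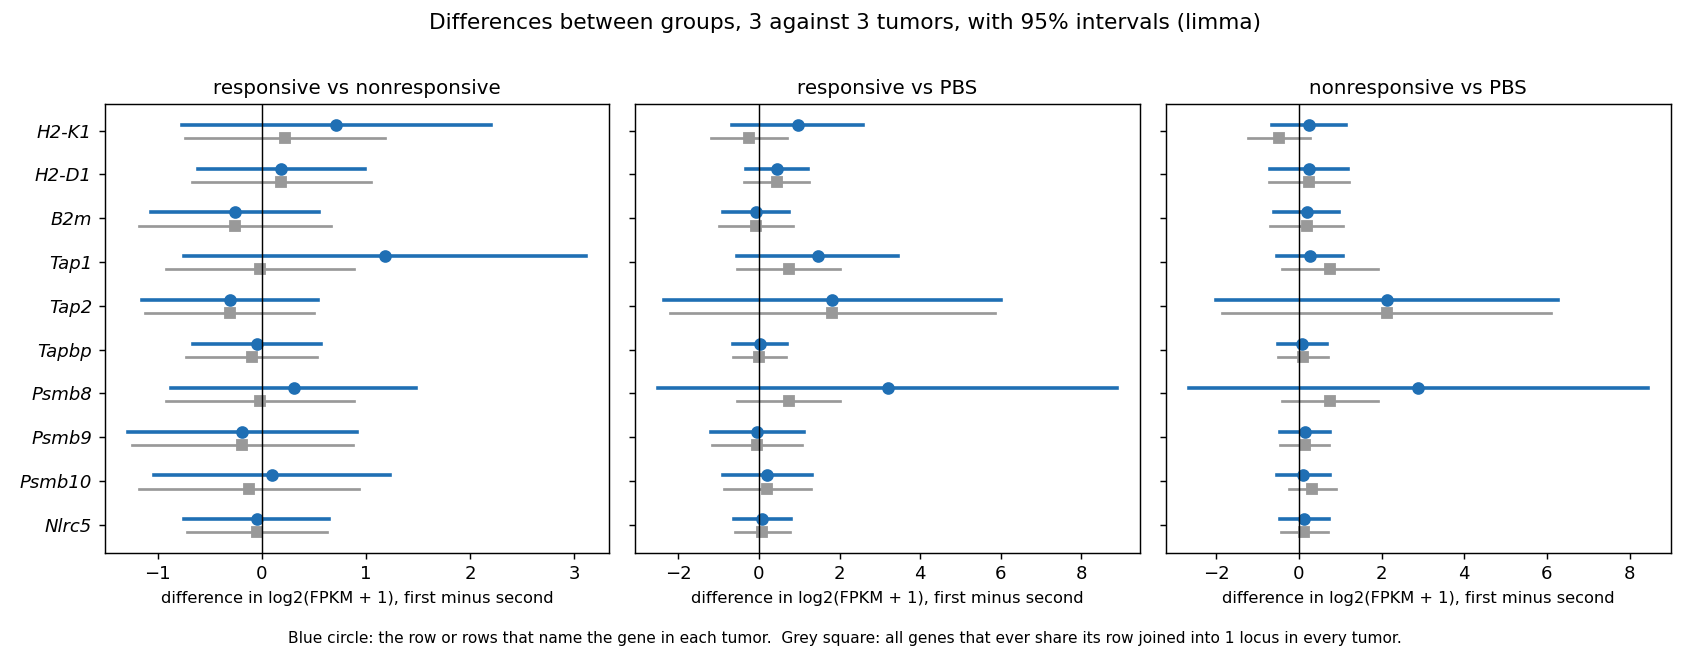
Difference between groups of 3 tumors in log2(FPKM + 1) for each gene, in the 3 comparisons, with 95% intervals from limma, as circles for the entries that name the gene and as squares for the locus joined from all genes that ever share its entry. Every interval includes 0, and the values of Tap1, Psmb8 and H2-K1 move toward or past 0 between circle and square in responsive against nonresponsive tumors.

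Against PBS, 8 of the 10 members were higher in the responsive tumors and all 10 in the nonresponsive tumors, with median differences of 0.33 and 0.21 on the log2 scale, beside -0.11 and -0.056 over all symbols. These comparisons share the PBS tumors. None of the members passed in either of them. In responsive against PBS tumors 0.217% of all symbols passed an adjusted p-value of 0.05, 17.3% an unadjusted one, and in 28% the groups did not overlap. In nonresponsive against PBS tumors these shares were 0.0726%, 3.19% and 8.06%. The smallest limma adjusted p-value of a member was 0.350 (Tap1, responsive against PBS) and 0.719 (Psmb8 and Tap2, nonresponsive against PBS).

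Single tumors moved the values against PBS. Tap2 and Psmb8, listed at 0 in PBS tumor 2, differed by -0.17 and 0.50 between responsive and PBS tumors without it, and by 0.14 and 0.20 between nonresponsive and PBS tumors. PBS tumor 1 had the lowest value of 5 members, and without it the median difference of nonresponsive against PBS tumors was -0.00084, with 5 of the 10 members higher. Over the same 6 members (H2-D1, B2m, Tapbp, Psmb9, Psmb10 and Nlrc5), a subset chosen after the values were seen, the medians were -0.048, 0.060 and 0.14 for responsive against nonresponsive, responsive against PBS and nonresponsive against PBS tumors. With H2-K1, H2-K2 and Rps18 joined, the difference was -0.25 for responsive and -0.47 for nonresponsive against PBS tumors. The entries that name H2-K1 gave 0.96 and 0.24. Rps18 alone measured 4781, 2395 and 3487 FPKM in PBS and 1397, 1869 and 2836 in nonresponsive tumors. No H2-K1 entry of the PBS and nonresponsive tumors held Rps18, so the joined difference between them is not a reading of H2-K1.

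Since the immunoproteasome subunits take the place of Psmb5, Psmb6 and Psmb7, each was also set against its constitutive counterpart within the same tumor. The log2 ratio of Psmb9 to Psmb6 was -1.06, -0.35 and -0.63 in PBS, -0.33, -0.36 and -0.41 in nonresponsive tumors and -1.48, -0.30 and -0.31 in responsive tumors. Psmb9 was therefore below Psmb6 in all 9 tumors, and the 3 nonresponsive tumors lay closer to each other than those of the other groups. The log2 ratio of Psmb10 to Psmb7 was -0.57, 0.24 and -0.43 in PBS, 0.26, -0.044 and 0.036 in nonresponsive tumors and -0.44, 1.20 and -0.027 in responsive tumors. The log2 ratio of Psmb8 to Psmb5 was 0.91 and 0.99 in PBS tumors 1 and 3, 1.16, 1.16 and 1.45 in nonresponsive tumors and 0.32, 1.85 and 1.80 in responsive tumors, the last 2 with Tap1 counted in.

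No ratio separated responsive from nonresponsive tumors, and the two-sided exact permutation p-values of the 9 comparisons ran from 0.2 to 1 (0.9 to 1 after Benjamini-Hochberg adjustment over the 9), where 3 against 3 tumors cannot give less than 0.1 and 3 against 2 not less than 0.2. The constitutive subunits themselves were steadier, with 143 to 231 FPKM for Psmb6, 102 to 162 for Psmb5 and 92.6 to 163 for Psmb7.

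**Figure D3:**
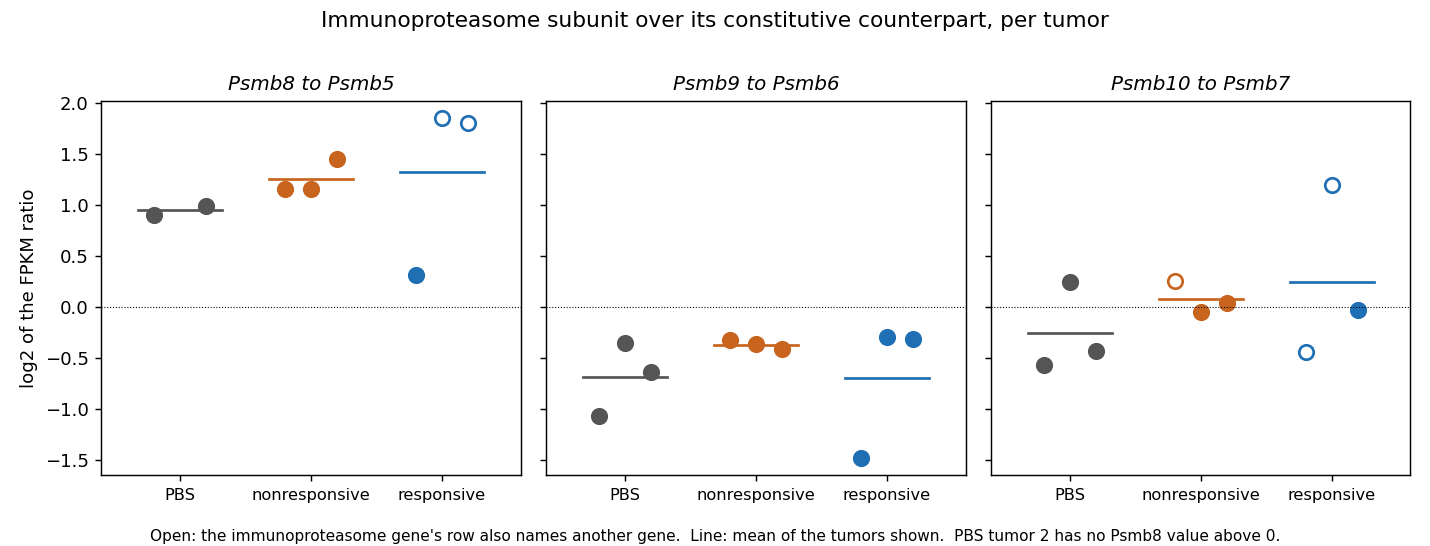
log2 of the FPKM ratio of each immunoproteasome subunit to its constitutive counterpart, with 1 point per tumor in the 3 groups, open where the entry of the immunoproteasome gene holds another gene, and a line for the mean. Of the points shown, responsive tumor 1 has the lowest ratio of Psmb8 to Psmb5 (0.32) and of Psmb9 to Psmb6 (-1.48), and responsive tumor 2 the highest in all 3 panels. PBS tumor 2, with Psmb8 listed at 0, has no ratio to Psmb5. With Tap1 added to Psmb8 in every tumor, nonresponsive tumor 3 has the highest ratio to Psmb5 (1.91, against 1.85 in responsive tumor 2).

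Within groups the members ranged widely, and several did so together. Among H2-D1, Tapbp, Psmb9, Psmb10 and Nlrc5 the 10 pairwise Pearson correlations of log2(FPKM + 1) over the 9 tumors ran from 0.31 to 0.93 with a median of 0.76, the highest for Tapbp with Nlrc5 (0.93) and Psmb9 with Psmb10 (0.89). Over the 9 tumors B2m correlated negatively with these 5, from -0.64 (Nlrc5) to -0.19 (Psmb9). Responsive tumor 2 had the lowest value of B2m and the highest of Tapbp, Psmb9, Psmb10 and Nlrc5. The correlations without that tumor were not computed, so how far they rest on it is not known. These are descriptions over 9 libraries that share their scaling and their tumors, with no test.

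Irf1 and Ifng, which belong to the interferon-gamma signal, ranged widely as well, with the same tumors at the low end. Irf1, an interferon-induced transcription factor, measured 119, 190 and 180 FPKM in PBS, 195, 140 and 213 in nonresponsive tumors and 81.2, 226 and 134 in responsive tumors. Ifng, for interferon-gamma itself, measured 1.44, 7.56 and 3.39 FPKM in PBS, 4.62, 5.50 and 6.43 in nonresponsive tumors and 1.80, 6.10 and 6.31 in responsive tumors. Responsive tumor 1 and PBS tumor 1 were the lowest 2 for both genes, as they were for Psmb9 and Psmb10. In responsive against nonresponsive tumors the differences were -0.41 (Irf1) and -0.30 (Ifng) on the log2 scale, each with a limma adjusted p-value of 0.971.

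Over the 9 tumors Psmb9 correlated with Irf1 at Pearson's r = 0.94 (Spearman's rho = 0.87) and with Ifng at 0.78 (0.73). Without responsive tumors 1 and 2, the farthest from the median of Psmb9, r was 0.83 and 0.78. With the mean of each group removed, it was 0.96 and 0.80. Nlrc5 gave 0.79 with Irf1 and 0.62 with Ifng, and Tapbp gave 0.88 and 0.81. H2-D1 followed them less closely, with 0.32 and 0.50, and without PBS tumor 1 and nonresponsive tumor 2, the farthest from its median, with 0.023 and 0.17. B2m gave -0.23 and -0.063, or -0.11 and 0.19 without PBS tumor 3 and responsive tumor 2, the farthest from its median. Tap2 gave -0.058 and -0.31, or 0.83 and 0.17 without responsive tumor 1 and PBS tumor 2, where Tap2 was listed at 0. These genes were set beside Psmb9 because of their known role, and the correlations are descriptions without a test.

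**Figure D4:**
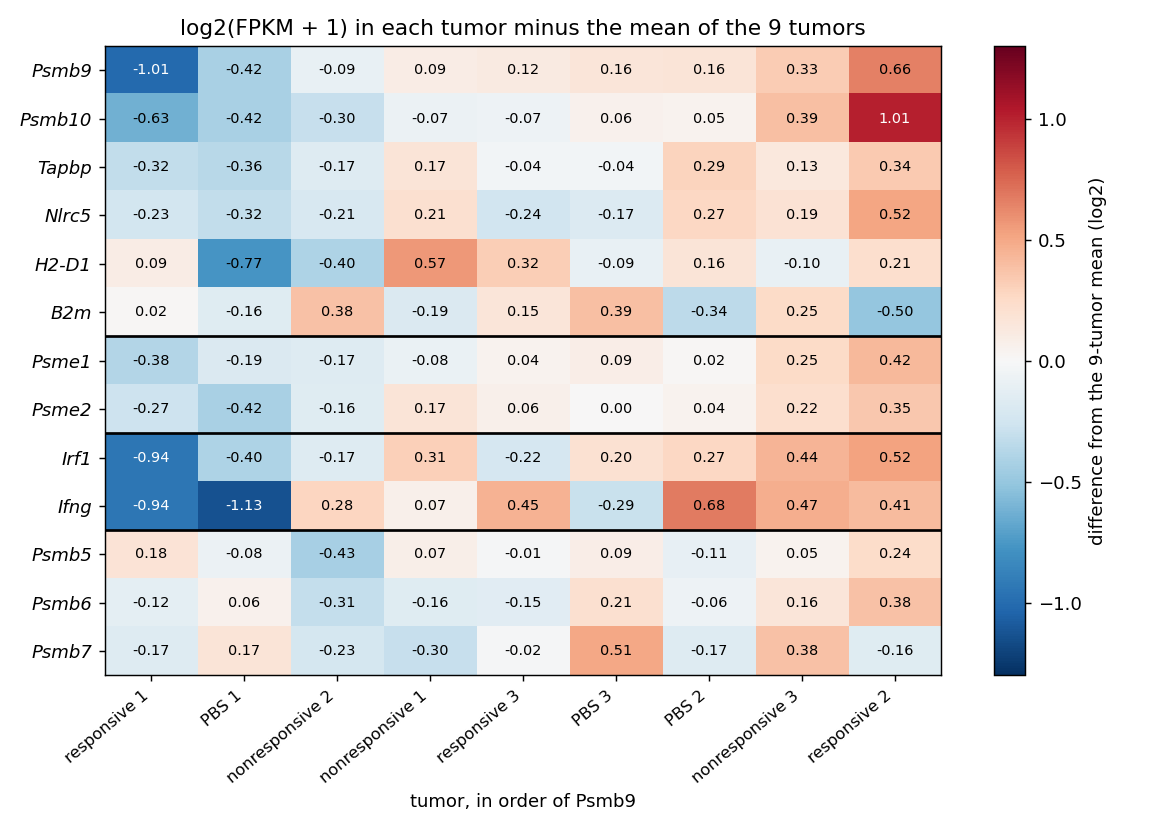
log2(FPKM + 1) in each tumor minus the mean of the 9 tumors, with genes in lines (6 class I genes, the proteasome activator genes, Irf1 and Ifng, and the constitutive proteasome subunits) and tumors in the order of Psmb9. Responsive tumor 1 is at the low end and responsive tumor 2 at the high end, with tumors of the 3 groups mixed between them, and B2m does not follow the order.

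By the rule set for likeness, the mean log2 of all 10 members was correlated with 11935 genes, and the 5 highest were Rfesd (r = 0.92), H2bc11 (0.92), Drap1 (0.87), Zfp119b (0.86) and Gm20604 (0.83). That mean was lowest in PBS tumor 2 (6.76), the tumor in which Psmb8 and Tap2 were listed at 0. With the mean of those 6 members instead, a choice made after the values were seen, the highest were Psme2 (0.98), Ubd (0.92), Rras (0.92), Bst2 (0.90) and Ubl5 (0.90). Psme2 encodes a subunit of the proteasome activator PA28, Ubd the ubiquitin-like protein FAT10 and Bst2 tetherin, all known as interferon-induced genes. That mean was 8.12 ± 0.28 in PBS, 8.27 ± 0.17 in nonresponsive and 8.22 ± 0.36 in responsive tumors (SD, n = 3 each).

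The other genes of the pathway also gave no adjusted call. Their unadjusted calls are to be read against the 5.44% of all symbols that passed in responsive against nonresponsive tumors and the 17.3% in responsive against PBS tumors, and no pathway list held more than 2 of them in a comparison. Of the 9 genes for peptide loading and trimming 0 passed an unadjusted p-value of 0.05 in responsive against nonresponsive tumors and 1, Hspa5, in responsive against PBS tumors, a share below that of all symbols. The most abundant were the chaperone genes Calr, Hsp90b1 and Hspa5. Calr, for calreticulin, measured 372, 402 and 382 FPKM in PBS, 411, 456 and 417 in nonresponsive tumors and 474, 492 and 477 in responsive tumors, so that no group overlapped another, with a difference of 0.17 on the log2 scale between responsive and nonresponsive tumors (limma adjusted p = 0.971). Hsp90b1 lay between 331 and 526 FPKM. Hspa5, for the chaperone BiP, measured 207, 323 and 304 in PBS, 410, 430 and 293 in nonresponsive tumors and 456, 445 and 365 in responsive tumors, 0.62 above PBS on the log2 scale (limma adjusted p = 0.288).

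Of the 6 genes for the proteasome activator and the constitutive catalytic subunits 0 passed an unadjusted p-value of 0.05 in any comparison. Psme2, the most abundant, measured 154, 211 and 206 FPKM in PBS, 231, 184 and 239 in nonresponsive tumors and 171, 262 and 215 in responsive tumors. Its partner Psme1 ranged from 150 in responsive tumor 1 to 263 in responsive tumor 2. Of the 12 other genes of the 20S core list 1 passed the unadjusted threshold in responsive against nonresponsive tumors. That was Pomp, the maturation factor of the proteasome core, with 241, 179 and 382 FPKM in PBS, 290, 300 and 403 in nonresponsive tumors and 72.8, 122 and 188 in responsive tumors. The responsive tumors all lay below the nonresponsive tumors for Pomp, by -1.45 on the log2 scale (SE 0.39, limma adjusted p = 0.887). Psma7 and Psma3, core subunits, ranged from 156 to 342 and from 132 to 251 FPKM and overlapped between groups.

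The 18 other heavy chain genes made 13 sets of values, and 0 of them passed the unadjusted threshold in responsive against nonresponsive tumors. Of these sets, those of H2-Q1, H2-Q2 and H2-Q4 came from the entry of H2-D1 in all or nearly all tumors. H2-T23, which encodes Qa-1, measured 156, 354 and 264 FPKM in PBS, 344, 269.6 and 279 in nonresponsive tumors and 234, 358 and 345 in responsive tumors. The most abundant of the list, H2-Q1, H2-Q7 and H2-Q10, sat in the entry of H2-D1 and had no value of their own. In responsive against PBS tumors 2 sets were higher at an unadjusted p-value of 0.05. They were Cd1d1, a lipid-presenting relative, by 1.55 and Fcgrt, the neonatal Fc receptor, by 0.65 on the log2 scale (limma adjusted p = 0.279 for both). These 2 of 13 are near the 17.3% of all symbols, and the 13 count H2-Q1 and H2-Q2 apart although their values in that comparison were the same.

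Of 15 genes for class I transcription and interferon-gamma input 13 were lower in the responsive than in the nonresponsive tumors, with a median difference of -0.29 on the log2 scale beside -0.060 over all symbols. Of these 15, 1 passed the unadjusted threshold, Rfxank, a subunit of the RFX complex that binds class I and class II promoters, with 7.80, 5.03 and 5.85 FPKM in nonresponsive and 12.4, 9.60 and 8.78 in responsive tumors, higher by 0.64 (limma adjusted p = 0.887). Against PBS, where it measured 2.90, 5.24 and 2.45 FPKM, Rfxank was higher by 1.35 in the responsive tumors and Jak2, a kinase of the interferon-gamma receptor, lower by -0.69 (limma adjusted p = 0.279 for both), and these 2 of 15 are also a smaller share than the 17.3% of all symbols. Rfx5, the DNA-binding subunit of the complex, was listed at 0 in PBS tumor 2 and nonresponsive tumor 3 and lay between 3.90 and 11.9 FPKM in the others. Ifngr1, the receptor gene, ranged from 54.6 to 92.8 FPKM, and Jak2 from 30.2 to 76.0.

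Receptors that read class I molecules on T and NK cells made 7 entries above the filter, and 0 passed the unadjusted threshold in any comparison. Cd8a, the coreceptor of class I-restricted T cells, measured 5.81, 24.4 and 5.96 FPKM in PBS, 4.70, 6.77 and 6.64 in nonresponsive tumors and 2.46, 22.8 and 19.1 in responsive tumors. It was lowest in responsive tumor 1 and higher in responsive tumors 2 and 3 than in any nonresponsive tumor. Cd3e, in the list as a CD3 subunit of the T cell receptor complex, ranged from 7.79 in PBS tumor 1 to 22.9 in PBS tumor 2. Pirb, an inhibitory receptor for class I on myeloid cells that shares its entry with relatives, ranged from 17.4 in PBS tumor 1 to 133 in nonresponsive tumor 1.

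Markers of other cells also differed between the tumors. In responsive against nonresponsive tumors, where 5.44% of all symbols passed an unadjusted p-value of 0.05, all 17 hepatocyte markers were higher with a median of 1.40 on the log2 scale and 8 of them passed, 5 of 12 T cell markers and 6 of 8 B cell markers were higher at that threshold, and none of these passed after adjustment. Other lists went the other way. Macrophage (2 of 12 higher, median -0.58), neutrophil (0 of 8, -0.37) and fibroblast markers (0 of 8, -0.60) were mostly lower. So were endothelial (1 of 8 higher, -0.093) and hepatoma and fetal liver markers (0 of 5, -0.79). Of these, Fcgr1 and H19 passed the unadjusted threshold and none after adjustment. The summed FPKM of the 12 T cell markers ranged over 145 to 174 in nonresponsive tumors and over 200 to 268 in responsive tumors. The summed NK cell list of 8 genes was lowest in responsive tumor 1 (45.9) and PBS tumor 1 (49.2) and highest in responsive tumor 2 (117), the same tumors as for Psmb9. Nkg7, a gene of cytotoxic granules that T cells express as well, made up 56.7 FPKM of that highest sum. The receptor genes Ncr1 (0.359) and Klrb1c (3.49, in an entry shared with Klrb1b) were lower in responsive tumor 2 than in any other tumor. The rest of the list did not follow them. There Klrd1 measured 14.8 FPKM, Gzma 13.3, Prf1 12.4, Eomes 8.70 and Klrk1 7.30, each inside the range of the other tumors. Klrb1c was the only gene of the list past the unadjusted threshold, lower in responsive than in nonresponsive tumors by -1.61 on the log2 scale (limma adjusted p = 0.869). Over the 9 tumors the mean log2(FPKM + 1) of a list correlated with Psmb9 at 0.79 for NK cells, 0.32 for T cells, -0.24 for macrophages, -0.040 for B cells and -0.024 for hepatocytes, as descriptions. The part of these cells in the values of the class I genes was not tested.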

How the data were processed

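Gene FPKM tables of 9 tumors were used as the authors deposited them, 1 per tumor, made by Cufflinks from transcripts assembled in each tumor and scaled by the authors for transcript length and mapped fragments. The submitters' processing notes name Bowtie2 2.2.4, TopHat2 2.1.1 and mm8. Positions of members are printed as the files give them. They differ from those of GRCm38, and their build was not settled, whereas promoter positions are RefSeq's. The deposited table of the authors' own group comparisons holds fold changes and test results and was not used. The number of reads behind an FPKM is not in the files, so no counting interval is given.

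Entries were assigned to a symbol by splitting their gene names on commas, and FPKM was summed per symbol and tumor. Symbols with a failed estimate (13) were left out. Groups came from the sample titles. limma 3.58.1 (R 4.3.3, lmFit and eBayes with trend) compared log2(FPKM + 1) between each pair of groups, on the 6 tumors of the pair and for symbols that reached 1 FPKM in 3 or more of them, with Benjamini-Hochberg adjustment over all symbols tested. Subunit ratios were compared by exact permutation of tumors (Python 3.11.15, scipy 1.17.1). Tested on 20 simulated sets of responsive against nonresponsive tumors (14901 genes), the steps gave an adjusted p-value under 0.05 to 48.7% of 200 genes changed by 2 on the log2 scale and an unadjusted one to 90.1%, against 5.24% of unchanged genes.

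The members and lists were chosen with earlier results of these data known. Named were all 10 members, the 3 most abundant measured genes of each pathway list, the constitutive counterparts, Irf1, Ifng, Rfx5 and H2-Q10, list genes with an adjusted p-value under 0.05 (none), and the 5 genes most like the mean of the members. Other genes were picked with their values in view, and 1 gene of the list for class I transcription and interferon-gamma input is not reported here and is left out of that list's counts. Alternatives were a pseudocount of 0.1, no filter or one at 5 FPKM, upper-quartile scaling, joined loci, all 9 tumors in 1 fit with or without a hepatocyte covariate, a replicate block and leaving out each tumor. At most 0.00542% of values were identical between tumors, so none was a duplicate. Tumors of a group are separate mice.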

Additional observations from a re-analysis of the deposited data

How the results depend on the processing

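No member passed an adjusted p-value of 0.05 (limma) under any alternative, and none passed an unadjusted one apart from Tap1 without responsive tumor 1, in both comparisons of the responsive group. Directions were less stable. With loci joined, responsive against nonresponsive tumors differed by -0.017 on the log2 scale (Tap1 with Psmb8) and -0.12 (Psmb10 with Ctrl). The sum of H2-K1, H2-K2 and Rps18 differed by -0.25 (responsive) and -0.47 (nonresponsive) against PBS, values that take in Rps18 in every tumor. The joined ratio to Psmb5 differed by -0.26 between responsive and nonresponsive tumors and by 0.83 between nonresponsive and PBS tumors, and that of Psmb10 to Psmb7 by -0.061 in the former. With a pseudocount of 1, which takes in the 0 of PBS tumor 2, the ratio of Psmb8 to Psmb5 differed by 3.02 (responsive) and 2.95 (nonresponsive) from PBS. With the hepatocyte covariate the differences were -0.16 (H2-D1) and 0.50 (Tap2) for responsive against nonresponsive tumors, -0.26 (H2-D1), -0.17 (Tapbp) and -0.021 (Nlrc5) for responsive against PBS, and -0.10 (H2-D1) and -0.020 (Tapbp) for nonresponsive against PBS. Psmb8 kept its direction there but moved from 0.31 to 1.46 for responsive against nonresponsive tumors. Their causes were not tested.

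Leaving out each tumor in turn turned the direction of some values. For responsive against nonresponsive tumors these ran from -0.023 to 0.46 (H2-D1), -0.22 to 0.11 (Tapbp), -0.011 to 0.79 (Psmb8), -0.56 to 0.28 (Psmb9), -0.35 to 0.47 (Psmb10) and -0.30 to 0.080 (Nlrc5), and the ratios from -0.20 to 0.57 (Psmb8 to Psmb5), -0.53 to 0.062 (Psmb9 to Psmb6) and -0.31 to 0.50 (Psmb10 to Psmb7). For responsive against PBS they ran from -0.22 to 0.14 (B2m), -0.17 to 2.84 (Tap2), -0.14 to 0.19 (Tapbp), -0.42 to 0.42 (Psmb9), -0.24 to 0.58 (Psmb10), -0.16 to 0.26 (Nlrc5) and -0.21 to 0.38 (ratio of Psmb9 to Psmb6). For nonresponsive against PBS they ran from -0.056 to 0.53 (H2-K1), -0.020 to 0.46 (H2-D1), -0.081 to 0.24 (Tapbp), -0.054 to 0.24 (Psmb9) and -0.082 to 0.26 (Psmb10). With 2 tumors left in a group the smaller group is assumed to vary like the other.

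Counts over all symbols with an adjusted p-value under 0.05, 15, 33 and 11 for responsive against nonresponsive, responsive against PBS and nonresponsive against PBS, also moved. The first was 8 at an FPKM of 5 and 8 with joined loci, and 0 to 34 with a tumor left out, 0 without responsive tumor 3 (373 at an unadjusted p-value under 0.05) and 34 without nonresponsive tumor 1. The second was 21 at an FPKM of 5, 19 with joined loci, 16 with all 9 tumors in 1 fit, 6 with the hepatocyte covariate and 7 to 52 with a tumor left out, 52 without PBS tumor 2 and 7 without responsive tumor 3. The third was 5 with no filter, 5 with joined loci, 6 with all 9 tumors, 5 with the covariate and 2 to 43 with a tumor left out, 2 without nonresponsive tumor 2 and 43 without nonresponsive tumor 3.

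With the replicate number as a block the 3 counts were 1, 0 and 0 (1024, 1042 and 253 at an unadjusted p-value under 0.05), and no call on a member changed. Same-numbered tumors are different mice, and the correlation of their deviations from the group means ran from -0.39 to 0.48, so the numbers were not taken as pairs. A further 379 recomputed values of single members kept their direction and their side of the threshold, though not always their size, and 129 of the counts, medians and ratios stayed within 1.5 times or within the spread between tumors. Sequencing depth as a number of fragments was unknown, and 3 tumors a group limit what can be detected.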
